A study of Mus musculus with 9 samples.

Results

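The synapse organizer genes described here are 40 genes for proteins that sit on, or are secreted between, the 2 faces of a forming synapse. They were picked by symbol, as families of known organizers, by a rule that uses no measured value, though with earlier results of these data known. All 40 have 1 entry each among the 32661 entries of the count tables that are neither spike-ins nor mitochondrial. They were followed in the ventral midbrain, in mice with the alleles VGAT-Cre, Ai14 and Pitx3-GFP. Single cells were sorted 1 to a well and profiled with SORT-seq, which builds on the CEL-Seq2 chemistry. In these mice, Cre driven from the vesicular GABA transporter locus (VGAT, gene Slc32a1) turns on tdTomato from the Ai14 allele. TdTomato thus marks cells with present or past VGAT expression. GFP marks Pitx3-expressing cells, which belong mainly, but not only, to the midbrain dopamine system. All groups carry the 3 alleles and none was treated. VGAT cells (tdTomato) filled 4 plates at E16, before birth, and 3 at P0, the day of birth, and VGAT+Pitx3 cells (tdTomato and GFP) filled 1 plate at each stage. Tissue came from several brains and litters at each stage, which the plates do not tell apart, so a plate is the replicate here and p-values measure the spread between plates, which may be technical.

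Of 3455 wells, 2035 were kept, 1460 from VGAT plates (1026 at E16 and 434 at P0) and 575 from VGAT+Pitx3 plates (304 and 271). The kept cells of a plate summed to between 1435919 and 5408710 counts, so that 3 counts equal 0.555 to 2.09 CPM (the level unit used here, which sets each plate to the same total), and VGAT P0 replicate 1 rests on 44 cells. Well numbers repeat on every plate, and 0 kept cells had the same counts as another. The sorts went with their markers: the summed level of 6 dopamine neuron genes was 61.0 to 141 CPM on VGAT plates and 2483 to 3268 CPM on VGAT+Pitx3 plates, and that of 3 GABA neuron genes was 1573 to 2040 and 1176 to 1340 CPM. Each column is headed by a pair of plate names. The first name, which matches the sample titles, was used. The second name gives another stage for 4 plates (VGAT E16 replicates 3 and 4, VGAT P0 replicates 1 and 3). It also carries the letter d on VGAT E16 replicate 4 and VGAT P0 replicate 3 and the letter s on the other plates, and what these letters stand for is not given in the sources used here. The markers follow the sort of the first name: Slc6a3, the dopamine transporter gene, was at 705 and 636 CPM on the VGAT+Pitx3 plates and at 0.198 and 2.34 CPM on the plates with the letter d. No marker of this kind was at hand for the stage, so the stage calls are set beside those under the second name.

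Synapse organizers are adhesion molecules that pair across the synaptic cleft and recruit the machinery on either side. Neurexins (Nrxn) and the LAR-type receptor tyrosine phosphatases (Ptprd, Ptprf, Ptprs) are the main presynaptic hubs. Neurexins bind postsynaptic neuroligins (Nlgn) and LRRTM proteins directly, and bind glutamate-receptor-like partners such as Grid1 through secreted cerebellins (Cbln). The phosphatases bind Slitrk, Il1rapl and Lrfn proteins, latrophilins (Adgrl) bind teneurins and FLRT proteins, calsyntenins (Clstn) are cadherin-like postsynaptic organizers, C1q-like proteins (C1ql) are secreted ligands of an adhesion receptor, and MDGA proteins bind neuroligins and keep neurexins off them. Nlgn2 and Slitrk3 are known from inhibitory synapses and Nlgn1, Lrrtm1 and Lrrtm2 from excitatory ones, so these genes are of interest in GABA neurons that are wiring into the midbrain.

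Upstream sequences are shown for 5 of the members that differed between the sorts and for which a stretch free of annotated exons lies before a RefSeq start, because the levels of these genes set the 2 sorts apart. They come from the RefSeq promoter table (GRCm38, 250 bases before a start), are written 5' to 3' on the strand of the gene, and have each CG dinucleotide in capitals. For Il1rapl2 the 104 bases from 250 to 147 before the start are shown, since an annotated exon lies between them and the start in the table. In the table, 29 of the 40 members had an entry, with 38 promoters among them. For Nrxn3, farthest upstream and farthest downstream refer to the starts in this table. Both Nrxn3 windows lie inside the gene as annotated in GENCODE, which begins at chr12:88722876, so neither needs to be the first start of the gene.
Il1rapl2 (chrX:137570504-137570607, plus strand): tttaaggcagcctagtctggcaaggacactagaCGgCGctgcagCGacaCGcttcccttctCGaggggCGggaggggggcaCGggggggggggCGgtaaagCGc
Flrt3 (chr2:140671477-140671726, minus strand): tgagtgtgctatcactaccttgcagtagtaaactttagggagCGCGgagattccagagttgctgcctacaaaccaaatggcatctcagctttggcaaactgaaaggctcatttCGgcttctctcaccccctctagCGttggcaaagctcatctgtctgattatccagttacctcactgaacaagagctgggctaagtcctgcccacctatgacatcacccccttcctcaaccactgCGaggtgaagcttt
Nrxn3, start farthest upstream (chr12:88794254-88794503, plus strand): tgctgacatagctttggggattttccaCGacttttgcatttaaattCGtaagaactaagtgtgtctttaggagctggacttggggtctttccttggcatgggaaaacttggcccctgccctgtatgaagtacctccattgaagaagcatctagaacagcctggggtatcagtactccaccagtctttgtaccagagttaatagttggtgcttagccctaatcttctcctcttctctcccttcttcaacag
Nrxn3, start farthest downstream (chr12:89812233-89812482, plus strand): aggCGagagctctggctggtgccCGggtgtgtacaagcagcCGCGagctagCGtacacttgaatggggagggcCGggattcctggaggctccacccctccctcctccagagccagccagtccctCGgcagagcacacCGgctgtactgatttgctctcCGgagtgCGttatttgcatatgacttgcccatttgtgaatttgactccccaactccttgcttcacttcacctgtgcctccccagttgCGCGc
Lrrtm1 (chr6:77242227-77242476, plus strand): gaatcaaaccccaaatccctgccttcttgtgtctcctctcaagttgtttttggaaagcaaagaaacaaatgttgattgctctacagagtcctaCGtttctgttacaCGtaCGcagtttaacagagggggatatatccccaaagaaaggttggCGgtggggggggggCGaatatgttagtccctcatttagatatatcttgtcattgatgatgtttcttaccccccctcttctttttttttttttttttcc
Cbln4 (chr2:172043467-172043716, minus strand): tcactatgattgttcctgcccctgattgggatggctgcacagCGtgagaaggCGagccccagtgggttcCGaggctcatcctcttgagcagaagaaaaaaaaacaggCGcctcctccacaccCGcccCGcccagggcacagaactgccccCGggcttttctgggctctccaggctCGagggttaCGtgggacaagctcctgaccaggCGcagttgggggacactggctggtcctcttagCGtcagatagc

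The stretches differ in base composition. The 250 bases at Lrrtm1 held 5 CG dinucleotides at 42.0% GC and those at Cbln4 held 11 at 60.8%, while the upstream start of Nrxn3 had 2 at 45.6% and its downstream start 12 at 60.0%. Over whole promoter entries, the median GC content was 59.8% for the 38 member promoters and 52.7% for all 32851 in the table, and the median number of CG dinucleotides was 15.5 and 7. Motif letters of factors that mark these cells were searched on both strands: AAAGGTCA (Nr4a2 response element) was in 0 of the 38 member promoters and in 1.51% of all. The Pitx and Otx core TAATCC was in 2 (Clstn3 and Mdga1) and in 7.06% of all. Neither motif contains another of those searched. A match is a description of the window and no sign of binding.

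The third motif, the GATA core GATAAG, was in 1 member promoter (Slitrk2) and in 7.44% of all.

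All 40 members were found, but at very different levels. The method primes at the poly-A tail and counts barcoded molecules, so exonic levels are given first undivided and then per kilobase of exon, and the order of the genes differs between these scales. Undivided, the highest exonic levels on VGAT plates were Ptprd at 813 ± 142 CPM (mean ± SD, n = 7 plates), Adgrl1 at 738 ± 43.9, Nrxn2 at 566 ± 136, Clstn1 at 554 ± 49.8 and Nrxn3 at 441 ± 58.8, of which Ptprd and Adgrl1, and Nrxn2 and Clstn1, did not differ beyond their spread. On VGAT+Pitx3 plates Nrxn3 at 869 ± 194 CPM (n = 2) and Adgrl1 at 861 ± 30.9 led on that scale. Per kilobase, the highest on VGAT plates were Clstn1 (calsyntenin 1) at 119 ± 10.7 CPM per kb (mean ± SD, n = 7 plates), Adgrl1 (latrophilin 1) at 85.9 ± 5.11, Lrfn1 (a SALM adhesion protein) at 63.4 ± 27.4, Nlgn2 at 61.6 ± 9.78 and Cbln4 at 44.6 ± 7.38. Of these, Clstn1 lay above Adgrl1 by more than their SDs on this scale only, whereas Lrfn1 and Nlgn2 did not differ beyond their spread. On VGAT+Pitx3 plates, Cbln1 led per kilobase with 152 ± 2.28 CPM per kb (n = 2), above Adgrl1 at 100.3 ± 3.60 and Clstn1 at 99.7 ± 22.2. At the other end, C1ql2 had 0 to 3.42 CPM per plate (0 to 18 counts), did not pass the filter for either plate-level main comparison, and C1ql3 had 0.198 to 2.24 CPM on VGAT plates. No member was under 1 CPM on all plates.

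The share of cells in which a member was found, after each cell was thinned to 4000 counts, tells widely used members from scattered ones (79 cells under that depth were left out). Nrxn3 was found in 99.4 to 100% of the cells of every VGAT plate and in all cells of the VGAT+Pitx3 plates. Ptprd was found in 92.9 to 98.3% of VGAT cells, Adgrl3 in 84.6 to 97.3%, Nlgn1 in 83.4 to 89.6% and Adgrl1 in 79.1 to 93.3%. Cbln1 was found in 2.37 to 9.30% of VGAT cells and in 54.8 and 55.8% of VGAT+Pitx3 cells. Il1rapl2 was found in 6.51 to 14.4% and in 35.1 and 43.4%, and Lrrtm2 in 6.98 to 12.4% and in 27.8 and 27.3%. In the other direction, Mdga1 was found in 9.30 to 50.0% of VGAT cells and in 2.68 and 4.42% of VGAT+Pitx3 cells, and Lrrtm4 in 69.8 to 84.3% and in 37.5 and 42.2%. These are shares of cells with a count, not of cells that express a gene. Without thinning, the mean share of C1ql3 was 1.53% on VGAT and 13.7% on VGAT+Pitx3 plates, and that of Mdga1 was 55.2 and 7.25%.

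Many members are very long genes, and their counts were mostly intronic. The 10 members over 200 kb had between 66.0 and 96.1% of their counts in introns (median 89.8%), and the 30 shorter ones had a median of 3.32%. Il1rapl1, for example, spans 1375 kb (chrX:86740870-88115645, GRCm38, minus strand) with 9.34 kb of exons, and 95.7% of its counts were intronic. Nrxn3 spans 1612 kb (chr12:88722876-90334935, plus strand) at 92.2%, while the intron-poor Cbln1 (chr8:87468405-87472609, minus strand) had none in introns. Over the 40 members the intronic share went with gene length (Spearman's rho 0.91, a description over genes that share the same 9 libraries). For the 12 members with most of their counts in introns, the level is thus largely one of intronic counts, whose origin was not tested. Lrrtm1, Lrrtm2, Lrrtm3, Flrt1, Flrt3 and Lrfn1 lie within another protein-coding gene on the opposite strand (Ctnna2, Ctnna1, Ctnna3, Macrod1, Macrod2 and Samd4b), and Cbln1 and C1ql1 lie within lincRNA genes on the opposite strand (Gm2694 and Gm26668). The use of strand in the counting is not given in the sources used here, so reads of these pairs may not be told apart.

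**Figure D1:**
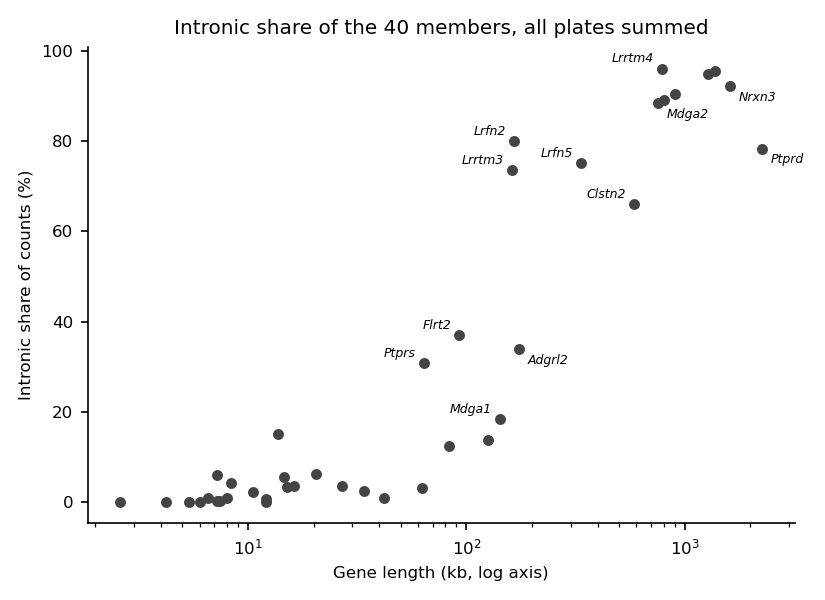
Intronic share of each member's counts, in percent with all 9 plates summed, against gene length in kb on a log axis. Each point is 1 of the 40 members, and the 10 over 200 kb lie between 66.0 and 96.1%.

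The next comparison asks which members differ between the 2 sorts. VGAT+Pitx3 cells had far more of the secreted ligand Cbln1, more of the presynaptic hub Nrxn3, of Il1rapl2 and of Lrrtm2, and far less Mdga1 and Lrrtm1. The secreted ligand C1ql3 was also higher, but it lay near the count floor on VGAT plates. Of the 39 members tested, 17 (43.6%) passed the threshold (edgeR, adjusted p under 0.05, stage as a covariate), 8 of them with more and 9 with less in VGAT+Pitx3 cells. Over all 14624 genes tested, 8.93% passed, 4.73% higher and 4.2% lower. The median log2 fold change was -0.13 over the members and -0.00068 over all genes. Plates of the 2 sorts did not overlap for 9 members that were higher (23.1%, against 7.86% of all genes) and 10 that were lower (25.6%, against 6.56%).

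Cbln1, the cerebellin best known as a secreted neurexin ligand at cerebellar synapses, had the largest difference of the members. Its level was 360 and 355 CPM on the VGAT+Pitx3 plates at E16 and P0, against a lowest of 7.14, a median of 12.2 and a highest of 19.96 CPM on the 7 VGAT plates. The groups lay far apart, a 29.1-fold difference (log2 4.86 ± 0.21, SE, adjusted p = 1.1e-09). C1ql3, a secreted C1q-like protein, was at 14.9 and 23.8 CPM (66 and 53 counts) against 0.198, 1.11 and 2.24 CPM (1 to 12 counts a plate), 17.6-fold higher (log2 4.14 ± 0.50, edgeR adjusted p = 4.6e-05). It was too low to be tested on VGAT plates alone, so it passed the low-count filter only through the sort where it is high. It was also called with no such filter. Its VGAT level is near the count floor, so the fold and p-value are a description only. C1ql3 stayed a rare transcript, found in 4.35 and 8.03% of thinned VGAT+Pitx3 cells. Cbln4, also a cerebellin, went the other way, with 50.0 and 48.9 CPM against 71.3, 104 and 123 CPM (log2 -1.03 ± 0.16, adjusted p = 0.00045). Cbln2 was not called (log2 -0.16 ± 0.32, adjusted p = 0.88), nor was C1ql1 (log2 -0.71 ± 0.46, adjusted p = 0.49), in edgeR.

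Among the presynaptic hubs, Nrxn3 was at 8583 and 8930 CPM in VGAT+Pitx3 cells and at 2888, 3846 and 4669 CPM (lowest, median, highest) on VGAT plates, a 2.38-fold difference without overlap (log2 1.25 ± 0.14, adjusted p = 2.9e-05). The difference was there in exonic counts alone (log2 1.01) and in intronic counts alone (log2 1.23). Nrxn2 did not pass (log2 -0.02 ± 0.16, adjusted p = 0.97). The 3 phosphatases differed from each other: Ptprs was 1.44-fold higher in VGAT+Pitx3 cells (adjusted p = 0.0082), Ptprd 1.67-fold lower (adjusted p = 0.022), and Ptprf did not pass (log2 0.14 ± 0.11, adjusted p = 0.61).

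The LRRTM receptors, postsynaptic partners of neurexins, went in both directions. Lrrtm1 was at 9.05 and 13.5 CPM on the VGAT+Pitx3 plates and at 46.0, 63.4 and 83.9 CPM on VGAT plates, 5.84-fold lower with no overlap (log2 -2.55 ± 0.20, adjusted p = 6.6e-07). Lrrtm2 showed the reverse, with 92.5 and 80.7 CPM against 28.9, 33.0 and 37.6 CPM, 2.67-fold higher (log2 1.42 ± 0.13, adjusted p = 2.9e-06). Lrrtm4 was 2.16-fold lower (adjusted p = 0.0031), and Lrrtm3 was not called although its 163 and 181 CPM lay below all VGAT plates (196 to 273 CPM). Of the neuroligins, Nlgn1 was 1.64-fold lower (adjusted p = 0.031), while Nlgn2 (log2 0.33 ± 0.16, adjusted p = 0.28) and Nlgn3 (log2 0.41 ± 0.15, adjusted p = 0.14) did not pass.

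The partners of the phosphatases also split. Il1rapl2 was at 259 and 374 CPM in VGAT+Pitx3 cells and at 35.6, 81.7 and 105 CPM in VGAT cells, 4.03-fold higher (log2 2.01 ± 0.25, adjusted p = 6.7e-05), whereas its paralog Il1rapl1, a gene linked to intellectual disability, was 1.73-fold lower (adjusted p = 0.024). Lrfn5, a SALM protein, was at 227 and 229 CPM against 417, 469 and 603 CPM (log2 -1.09 ± 0.15, adjusted p = 0.00017), and Slitrk4 was 1.63-fold higher (adjusted p = 0.0025). The other 5 Slitrk genes, Lrfn1 and Lrfn2 did not pass. Flrt3, a ligand of latrophilins and Unc5 receptors, was 2.15-fold higher (adjusted p = 0.0015), and the latrophilin Adgrl2 was 1.93-fold lower (adjusted p = 0.029). Adgrl1 was at 701 and 646 CPM, above all VGAT plates (495 to 642 CPM), without passing. Mdga1, the neuroligin-binding protein, was at 7.24 and 9.87 CPM against 55.8, 90.3 and 207 CPM, 13.6-fold lower (log2 -3.76 ± 0.60, adjusted p = 0.00064), while Mdga2 did not pass (log2 -0.11 ± 0.19, adjusted p = 0.85).

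**Figure D2:**
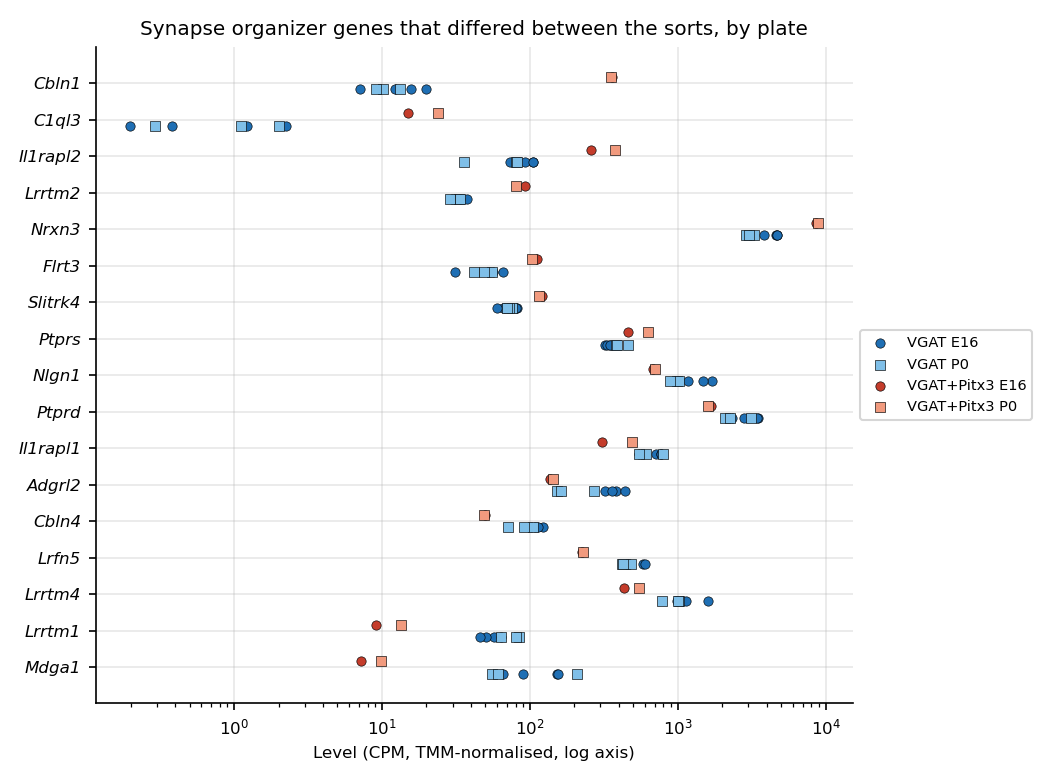
Levels of the 17 members that differed between the sorts, in CPM with TMM normalisation on a log axis, 1 point per plate. Red VGAT+Pitx3 plates lie to the right of all blue VGAT plates for 8 genes, with Cbln1 at 360 and 355 CPM, and to the left for 9, with Mdga1 at 7.24 and 9.87 CPM.

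**Figure D3:**
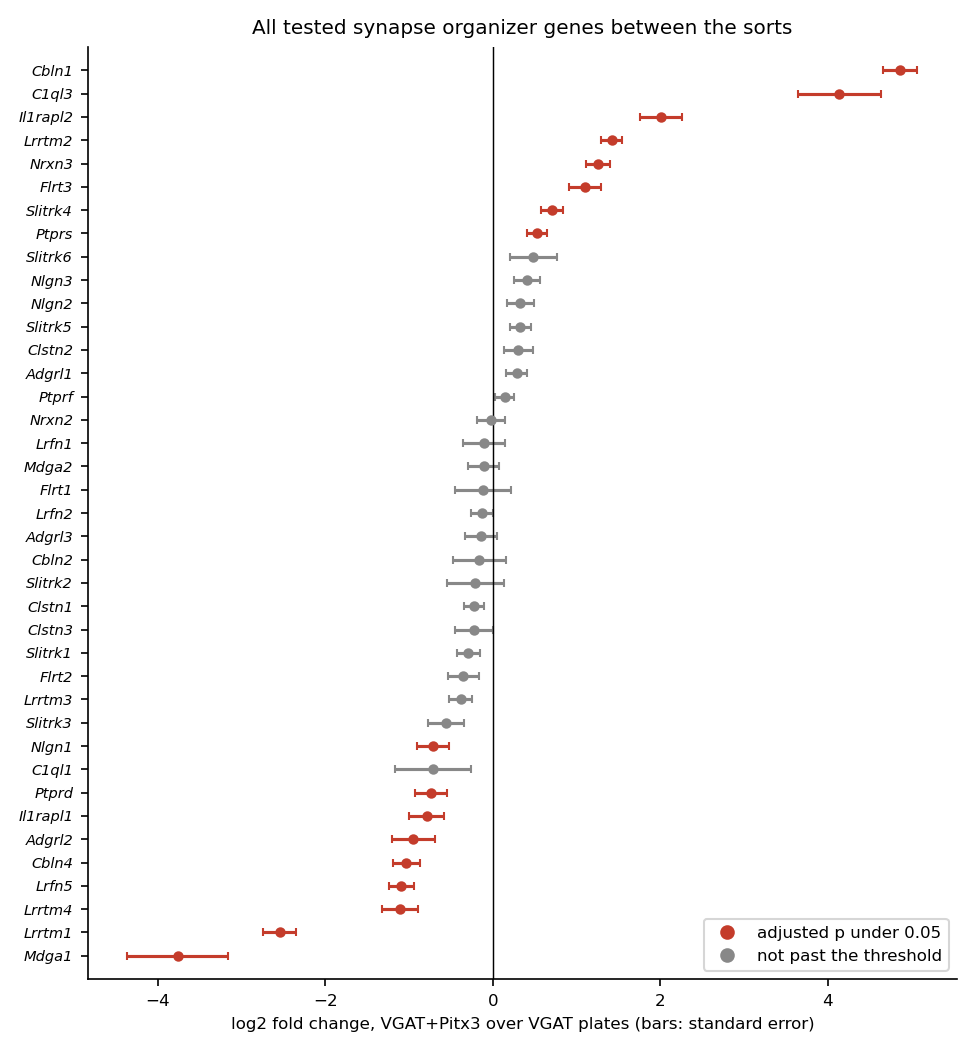
Log2 fold change of VGAT+Pitx3 over VGAT plates for the 39 members tested, with standard errors, derived from the F statistic of edgeR, as bars. The 17 genes past the threshold (red) fall on both sides of 0, from Mdga1 at -3.76 to Cbln1 at 4.86.

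All 17 kept their direction in every alternative that tested them. Cbln1, C1ql3 and Lrrtm2 have too few intronic counts to be tested on these alone. Left out one at a time, no single plate removed the call of Nrxn3, Lrrtm1, Lrrtm2, Cbln1, C1ql3, Il1rapl2, Lrfn5 or Mdga1, where the limit given above for the C1ql3 test also holds. The other called members lost their call without at least 1 plate. Fewer members were called without either VGAT+Pitx3 plate, and fewest without the E16 one. In those fits 1 plate stands for the sort and is assumed to vary like the VGAT plates, which give the spread. The cause of the lost calls was not tested. The 2 sorts also differ in makeup. Besides the dopamine genes, the 3 glutamate neuron genes were at 108 to 210 CPM on VGAT+Pitx3 and 1.90 to 23.9 CPM on VGAT plates, and the 4 Dlx-family genes of forebrain-like GABA cells at 0 to 0.226 and 7.59 to 242 CPM. The part of these cells in the differences was not tested. Without cells that had a Dlx count, 17 members were called, a count that does not tell whether they are the same 17. In summed plates, fewer cells with a gene and less RNA per cell cannot be told apart, and the shares of thinned cells above move with both.

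Within the VGAT+Pitx3 plates, cells with 3 or more Slc6a3 counts and cells without any were set side by side (97 and 157 cells at E16, 75 and 140 at P0, all thinned to 4000 counts). As 1 plate stands for each stage, these are values with exact 95% Poisson intervals, which cover counting error only, and no test. The intervals lay apart on both plates for 9 members, higher in Slc6a3 cells for 3 and lower for 6. Of 9223 genes with at least 10 counts on each plate, which include 36 members and all 9 of these, 1.85% were apart on both plates with the higher level in Slc6a3 cells and 2.33% with the lower. Cbln1, so high in this sort, was at 72.2 CPM (48.0 to 104) in Slc6a3 cells and 616 CPM (556 to 681) in cells without Slc6a3 at E16, and at 33.3 (15.98 to 61.3) and 486 CPM (430 to 547) at P0. On both plates the cells without the dopamine transporter gene were the higher ones. The related Cbln2 had the same order, with 2.58 CPM (0.0653 to 14.4) against 47.8 (32.2 to 68.2) at E16, and 10 CPM (2.06 to 29.2) against 83.9 (61.7 to 112) at P0.

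Clstn2, a calsyntenin that was not called between the sorts, had the widest gap in favour of Slc6a3 cells, at 688 CPM (608 to 776) against 63.7 CPM (45.5 to 86.7) at E16, and at 533 (454 to 623) against 102 CPM (77.1 to 132) at P0. Lrrtm2 was at 196 CPM (154 to 245) against 42.99 (28.3 to 62.6) at E16, and at 130 CPM (92.4 to 178) against 60.7 (42.0 to 84.8) at P0. Il1rapl2 was at 389 CPM (330 to 456) against 118 (92.5 to 148) at E16, and at 503 CPM (426 to 590) against 316 (271 to 366) at P0. These 3 were the members higher in Slc6a3 cells. Besides the 2 cerebellins, Mdga2, Adgrl3, Ptprd and Il1rapl1 were lower in them. Mdga2 was at 186 CPM (145 to 234) against 974.5 (899 to 1055) at E16, and at 377 CPM (310 to 453) against 1125 (1039 to 1216) at P0. Nrxn3 was at 8686 CPM (8395 to 8984) against 8855 (8624 to 9091) at E16, where the intervals overlap, and at 8200 CPM (7879 to 8531) against 9309 (9058 to 9565) at P0, where they do not.

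A list of 31 other receptors and ligands of these pathways held 5 genes with more and 9 with less in VGAT+Pitx3 cells, and 17 that did not pass (edgeR). Of all genes, 8.93% were called in this comparison, 4.73% with more and 4.2% with less, which is also the background of the scaffold and active zone counts given after it. Grid1, a partner of cerebellins, was higher (log2 1.17, adjusted p = 2.0e-05). The netrin-G genes Ntng1 (log2 2.47) and Ntng2 (log2 3.74), Il1rap (log2 2.08), a phosphatase ligand, and the teneurin Tenm1 (log2 1.51) were higher too. Among the lower ones were Tenm2 (log2 -0.72), Tenm3 (log2 -1.16) and Tenm4 (log2 -1.17), the netrin-G ligand Lrrc4c (log2 -1.52), Ntrk3 (log2 -1.41), which binds Ptprs, Unc5d (log2 -1.04), Adgrb1 (log2 -0.93) and Gpc4 (log2 -2.63, at 0.903 against 6.73 CPM, near the depth limit). Of 20 postsynaptic scaffold genes, Dlg1 (log2 1.04), Homer2 (log2 1.80) and Magi1 (log2 1.31) were higher and Dlgap2 (log2 -1.08) was lower. Of 19 active zone genes, Apba1 (log2 1.01), Erc2 (log2 1.29) and Rims1 (log2 0.72) were higher and none was lower among those that passed.

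Between E16 and P0, differences among VGAT cells were small and rested on the assignment of plates. In the first plate names, 4 of the 38 members tested (10.5%) passed, against 4.58% of 13639 genes: Nlgn3 was higher at P0 (2.84% of all genes were), and Adgrl2, Mdga2 and Nrxn3 were lower (1.74% of all genes were). With the stage of the second plate names, 0 members and 1 gene passed (edgeR), and the log2 fold changes of these 3 turned positive. The levels that follow were normalised over all 9 plates.

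Adgrl2 (latrophilin 2) was at 385, 321, 440 and 358 CPM on the 4 E16 plates in order of replicate and at 152, 272 and 163 CPM on the 3 P0 plates. The stages did not overlap (log2 -0.93 ± 0.19, adjusted p = 0.022). VGAT+Pitx3 cells had 136 and 144 CPM, below all VGAT plates. Mdga2 was at 990, 902, 929 and 938 CPM at E16 and at 745, 628 and 564 CPM at P0 (log2 -0.53 ± 0.12, adjusted p = 0.035). Nrxn3 was at 4595, 3846, 4669 and 4660 CPM and at 3262, 2888 and 3055 CPM (log2 -0.52 ± 0.12, adjusted p = 0.037). Exonic counts of Nrxn3 alone gave a log2 fold change of 0.13 (adjusted p = 0.60) and intronic counts alone one of -0.35 (adjusted p = 0.13), and the intronic share of Nrxn3 was 92.2 to 93.6% at E16 and 85.8 to 90.2% at P0. Over all genes the intronic share was 24.2 to 30.0% on the E16 and 20.1 to 25.9% on the P0 plates, and the part of this shift in the results was not tested. Nlgn3 was at 39.4, 42.3, 37.1 and 36.1 CPM at E16 and at 49.1, 76.1 and 54.3 CPM at P0 (log2 0.64 ± 0.16, adjusted p = 0.039).

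Other members lay apart between stages without passing. Nrxn2 was at 396 to 455 CPM at E16 and 482 to 740 CPM at P0, Lrrtm1 at 46.0 to 63.4 and 63.9 to 83.9 CPM, Ptprs at 323 to 351 and 382 to 462 CPM, and Slitrk1 at 88.2 to 96.2 and 61.7 to 87.6 CPM. Together with the called ones, 4 members were higher without overlap at P0 (10.5%, against 10.5% of all genes) and 4 lower (10.5%, against 10.1%), shares close to those of all genes. An unadjusted p under 0.05 was reached by 17 of 38 members and by 24.1% of all genes. VGAT P0 replicate 2, the plate with the fewest counts per cell, was the highest VGAT plate for Nrxn2, Nlgn3 and Lrfn1, the last at 384 CPM against 174 and 163 CPM on the other VGAT P0 plates. The 6 astrocyte genes were at 34.5 to 76.5 CPM on the E16 and 72.6 to 269 CPM on the P0 plates, and the Dlx-family genes at 49.4 to 242 and 7.59 to 51.1 CPM. The part of the astrocyte genes was not tested. Without cells that had a Dlx count, Nlgn3 (log2 0.68), Adgrl2 (log2 -0.79) and Nrxn3 (log2 -0.53) passed and Mdga2 did not (log2 -0.50, adjusted p = 0.055).

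**Figure D4:**
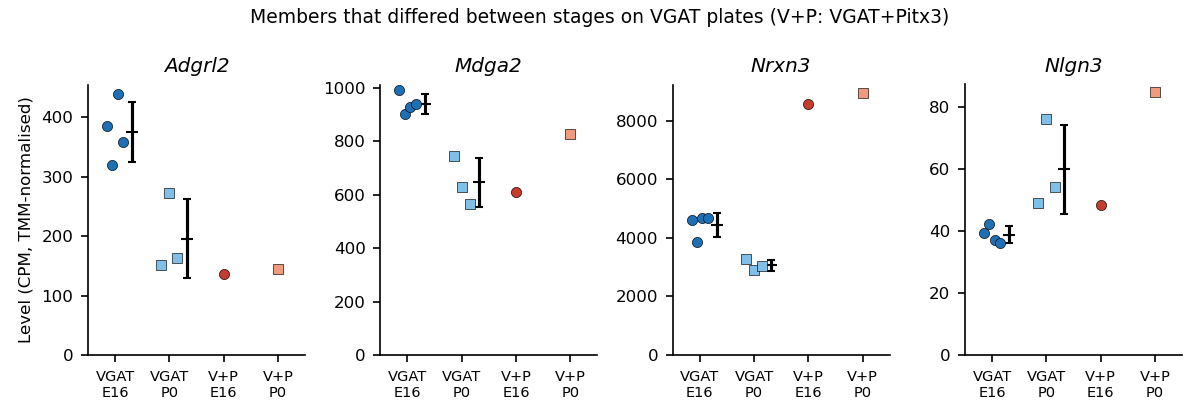
Levels of the 4 members that differed between stages in VGAT cells, in CPM with TMM normalisation over 9 plates, 1 point per plate, with mean and SD beside the VGAT groups. VGAT+Pitx3 plates (V+P) are shown for reference, and in them all 4 genes lie higher at P0 than at E16, Adgrl2 at 144 against 136 CPM.

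The same 4 members passed with DESeq2, with RLE size factors, with at least 3000 genes per cell and without cells over 2 times the median count. They did not hold when plates were left out. Left out singly, VGAT E16 replicate 3 or 4 or VGAT P0 replicate 3 brought the members called to 0, VGAT E16 replicate 1 or VGAT P0 replicate 2 brought them to 1, VGAT P0 replicate 1 to 6 and VGAT E16 replicate 2 to 8. With the VGAT plates whose 2 names give the same stage (2 at E16, 1 at P0), Nlgn3, Nrxn2, Lrfn1 and Mdga1 passed, and the others named above did not. The single P0 plate there is replicate 2, the highest VGAT plate for all 4 of these genes, and it is assumed to vary like the 2 E16 plates that give the spread, so these calls describe that plate. Of the partner list, Sparcl1 (log2 1.40), a protein known from astrocytes, Igsf21 (log2 0.78) and Adgrb2 (log2 0.56) were higher at P0 and Cadm2 (log2 -0.64) was lower, of 30 tested. Magi2 (log2 -0.67) fell among 20 scaffold genes, and Lin7b (log2 1.02) rose and Lin7a (log2 -0.64) fell among 19 active zone genes, where 4.58% of all genes were called. In all, 8 genes of the 3 lists were called between stages, and with the second plate names 0 of these 8 were (edgeR, lowest adjusted p = 0.79), with 3 of them in the same direction.

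Whether the stage difference itself depended on the sort was asked with an interaction term. In edgeR it passed for 0 of 15724 genes and 0 of 40 members, although 998 genes (6.35%) and 7 members had an unadjusted p under 0.05, and DESeq2 called 14 genes. The member called by DESeq2 was Mdga2 (adjusted p = 0.046), which was at 610 and 825 CPM at E16 and P0 in VGAT+Pitx3 cells while it was lower at P0 in VGAT cells. In edgeR its interaction was 0.97 ± 0.25 on the log2 scale (adjusted p = 0.77). With the second plate names it was 0.37 ± 0.44 (adjusted p = 0.99), and 0 genes passed in edgeR, with 604 at an unadjusted p under 0.05. As 1 VGAT+Pitx3 plate stands for each stage, these plates were assumed to vary like the VGAT plates.

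Within VGAT plates, cells were split by 2 transcription factors of nigral GABA cells, Six3 and Pax5, neither of which is a member. On each plate, 19 to 131 cells had a Six3 and no Pax5 count (637 in all) and 5 to 69 a Pax5 and no Six3 count (197 in all). These sets rest on counts of the 2 genes only. Cells with a Dlx count, from 5 on VGAT P0 replicate 3 to 120 on VGAT E16 replicate 2, were not left out of this split. The sets may thus hold cells that are not nigral. With the plate as a block, 6 of 37 members (16.2%) differed, against 2.82% of 11773 genes. Pax5 cells had more C1ql1, Mdga1 and Flrt1 (1.4% of all genes were higher in Pax5 cells), and Six3 cells had more Mdga2, Adgrl3 and Clstn2 (1.42% of all genes).

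C1ql1, the C1q-like ligand known from climbing fibre synapses of the cerebellum, was at 10.6, 7.64, 7.55, 1.35, 13.0, 8.17 and 8.46 CPM in Six3 cells of the 7 plates (E16 replicates 1 to 4, then P0 replicates 1 to 3) and at 239, 181, 148, 69.2, 0, 240 and 148 CPM in their Pax5 cells. It was higher in Pax5 cells on 6 of 7 plates, and the exception, VGAT P0 replicate 1, had 5 such cells (19.4-fold, log2 -4.28 ± 0.31 for Six3 over Pax5 cells, adjusted p = 4.3e-08). Mdga1 was at 31.7 to 170 CPM in Six3 cells and at 140 to 360 CPM in Pax5 cells, lower in Six3 cells on 7 of 7 plates, a 3.57-fold difference (log2 -1.83 ± 0.15, adjusted p = 4.8e-07). Flrt1 averaged 17.5 and 41.5 CPM (log2 -1.34 ± 0.22, adjusted p = 0.0012).

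The 2 MDGA genes went in opposite directions. On 7 of 7 plates Mdga2 was higher in the Six3 cells, at 638 to 1060 CPM against 179 to 789 CPM (log2 0.75 ± 0.15, adjusted p = 0.0048). Adgrl3 (latrophilin 3) was also higher on 7 of 7 plates, at 894 to 1560 against 429 to 1126 CPM (log2 0.59 ± 0.11, adjusted p = 0.0023), and Clstn2 on 6 of 7 (log2 0.69 ± 0.18, adjusted p = 0.044). Of the 6, Mdga1 passed in every alternative and C1ql1 in every one that tested it (its intronic counts were too few). All plates went the same way for 2 members higher in Six3 cells (3.08% of all genes did so) and 1 higher in Pax5 cells (1.27%). Among 30 partners tested, Unc5a (log2 1.87), Unc5b (log2 2.46), Ntng1 (log2 1.17) and Tenm4 (log2 0.84) were higher in Six3 cells and Elfn1 (log2 -1.73), Elfn2 (log2 -0.78), Il1rap (log2 -1.83) and Tenm1 (log2 -0.81) in Pax5 cells. The scaffolds Gphn (log2 -0.52), which anchors GABA receptors, and Homer2 (log2 -1.08) were higher in Pax5 cells.

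Cells with a count of Otx2, a transcription factor found in parts of the ventral tegmental area among other midbrain regions, were set against the remaining VGAT cells of the same plate (14 to 96 and 30 to 221 cells a plate, 398 and 1062 in all). Of 38 members, 9 (23.7%) differed, against 4.64% of 12414 genes, 2 of them higher in Otx2 cells (2.61% of all genes) and 7 lower (2.03%).

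Clstn2 was the clearest, at 403, 370, 852, 624, 420, 406 and 383 CPM in Otx2 cells of the 7 plates and at 214, 239, 241, 310, 109, 260 and 163 CPM in the rest. It was higher on 7 of 7 plates with no overlap (2.22-fold, log2 1.15 ± 0.13, adjusted p = 1.8e-05). Il1rapl2 averaged 126 and 68.6 CPM, but was higher on 5 of 7 plates (log2 0.88 ± 0.21, adjusted p = 0.021). Lrrtm3 was at 173, 97.5, 128, 167, 206, 198 and 177 CPM in Otx2 cells and at 234, 237, 286, 238, 230, 214 and 301 CPM in the rest, lower on 7 of 7 plates (log2 -0.67 ± 0.12, adjusted p = 0.0016). C1ql1 averaged 12.8 and 33.0 CPM (log2 -1.51 ± 0.32, adjusted p = 0.0088), lower on 6 of 7 plates, and Flrt1 17.4 and 25.3 CPM (log2 -0.65 ± 0.17, adjusted p = 0.034). Smaller differences were seen for Ptprd (log2 -0.31 ± 0.07, adjusted p = 0.012), Ptprf (log2 -0.33 ± 0.08, adjusted p = 0.019), Slitrk4 (log2 -0.36 ± 0.09, adjusted p = 0.021) and Lrfn5 (log2 -0.32 ± 0.08, adjusted p = 0.024), of which Ptprf and Slitrk4 were lower on 7 of 7 plates. Clstn2 and Lrrtm3 passed in every alternative. Clstn2 was the member higher in Otx2 cells on all plates (2.68% of all genes were) and 4 were lower on all plates (2.8%), Slitrk5 among them without a call.

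**Figure D5:**
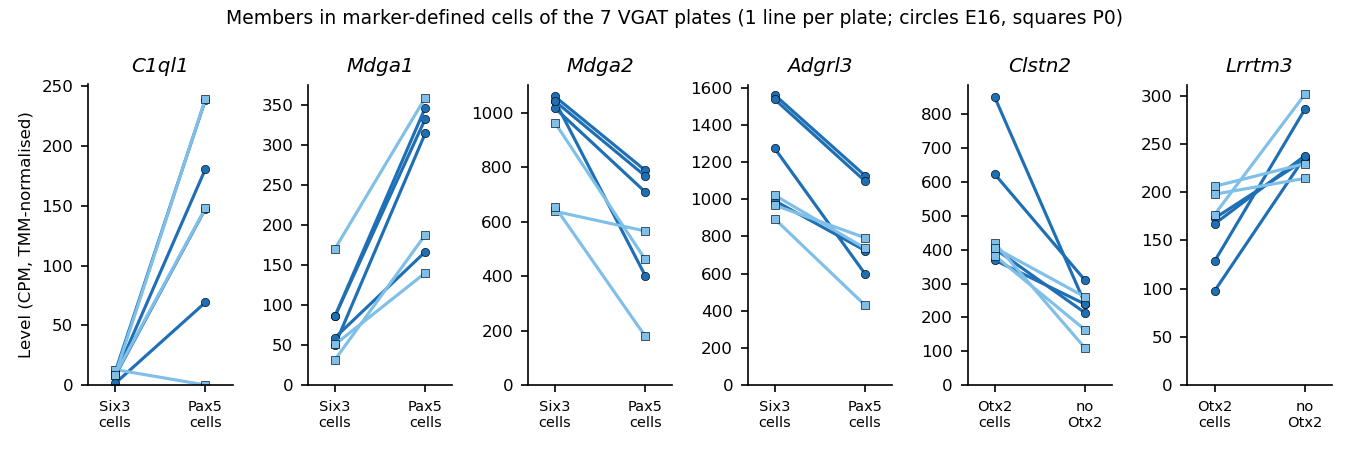
Levels in CPM (TMM-normalised) of 4 members in Six3 and Pax5 cells and of 2 members in Otx2 cells and the rest, 1 line per VGAT plate, with E16 plates as dark circles and P0 plates as light squares. All 7 lines run the same way except for C1ql1, where VGAT P0 replicate 1 with its 5 Pax5 cells falls to 0.

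Among partners in this split, Sparcl1 (log2 1.20) and Unc5a (log2 0.54) were higher in Otx2 cells and Lrrc4c (log2 -0.64), Elfn2 (log2 -0.51), Tenm3 (log2 -0.47), Unc5c (log2 -0.44) and Tenm1 (log2 -0.27) lower, of 30 tested. The active zone gene Ppfia2 was higher (log2 0.41) and Apba1 lower (log2 -0.26). In edgeR, 0 of 20 scaffold genes passed, against 4.64% of all genes. An unadjusted p under 0.05 was reached by 3 of them and by 14.5% of all genes, a similar share. Over the 4 comparisons with calls, 25 members were called in at least 1, 11 of them in 2 or more, and 15 in none. Of 14651 genes tested in any of them, 39 of which are members, 15.1% were called in at least 1 and 3.46% in 2 or more. The 15 are Nrxn2, Nlgn2, Cbln2, Clstn1, Clstn3, Adgrl1, Flrt2, Lrfn1, Lrfn2 and C1ql2, and all Slitrk genes except Slitrk4.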

How the data were processed

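Cells were sorted into 384-well plates and sequenced with SORT-seq. Per the labels and methods, the authors aligned reads with STAR to mm10 (GRCm38), made tables of exonic, of intronic and of summed counts for each gene in each well, and corrected counts for molecules that share a random barcode. The labels give this barcode 6 bases and the methods give it fewer. The values bear out 6, since 100% lay within 0.001 of the correction for that length. The deposited values are expected counts, not scaled to depth. They were summed over kept wells (at least 2000 genes, at most 50000 counts, under 15% mitochondrial) per plate and rounded. Doublets were not called. The quasi-likelihood test of edgeR 4.0.16 (TMM factors, filterByExpr, R 4.3.3; Benjamini-Hochberg over all genes tested, threshold 0.05) was run on exonic plus intronic sums, with DESeq2 1.42.0 as an alternative, and tested on simulated data. Shares used cells thinned to 4000 counts. Levels are CPM with TMM factors. Standard errors (SE) of log2 fold changes were derived from the fold change and its F statistic in edgeR. Gene positions are from GENCODE vM21. Other steps ran in Python 3.11.15 with scipy 1.17.1, numpy 2.4.6, matplotlib 3.10.9 and pandas 2.3.3.

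The members, lists and tests were chosen with earlier results of these data known. Members named with full statistics are those past the threshold (the 8 with the lowest adjusted p where more than 8 passed, the others by fold), those whose plates did not overlap, and the 5 with the highest exonic level, undivided and per kilobase. Values printed beyond this rule were chosen after they were seen. Alternatives were RLE factors, no filter on low counts, exonic or intronic counts alone, other cell filters, thinning, each plate left out, the replicate number or plate as a block or not, and 2 settings added after seeing the data on the plate names. Some genes of the lists, counted in the totals, are not reported here by name.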

Additional observations from a re-analysis of the deposited data

Results flagged for a closer look

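Nrxn3 at E16 had 1 plate that stood apart from the other 3. VGAT E16 replicate 2 was at 3846 CPM, against 4595 to 4669 CPM on the others, and its gap to the nearest of them was 0.91 of the whole range of the 4 plates. Levels of all 40 members on the 4 E16 VGAT plates were screened in this way, and chance alone marks about 1 in 20 groups. Without this plate, Nrxn3 still passed between stages (log2 -0.58, adjusted p = 0.020, edgeR).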

How the results depend on the processing

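In the comparison of sorts, all 17 called members kept their direction in every setting that tested them, and 7 passed in all of these (Nrxn3, Lrrtm2, Cbln1, C1ql3, Il1rapl2, Lrfn5 and Mdga1). With intronic counts alone, 705 genes and 11 members passed in place of 1306 and 17. Leaving out 1 plate gave 625 to 1397 genes and 8 to 20 members. Without the VGAT+Pitx3 E16 plate there were 625 genes and without the P0 plate 866. Between stages, the 624 genes and 4 members became 944 genes with DESeq2, 1588 and 14 without a filter on low counts, 1 member with exonic counts, 168 and 0 with intronic counts, 412 genes in thinned cells, and 1 and 0 with the second plate names. Leaving out 1 plate gave 76 to 833 genes and 0 to 8 members, with 265, 92 and 130 genes without VGAT E16 replicates 1, 3 and 4 and 162 and 76 without VGAT P0 replicates 2 and 3. With the second plate names the log2 fold changes of Adgrl2, Mdga2 and Nrxn3 were 0.48, 0.056 and 0.14, and with exonic counts that of Nrxn3 was 0.13. The interaction of stage and sort gave 14 genes and 1 member with DESeq2, 66 genes without a filter, and 0 to 0 genes and members with a plate left out. The cause was not tested.

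For Six3 against Pax5 cells, 332 genes and 6 members became 541 and 13 without a filter, 138 and 3 with intronic counts, 148 and 3 without the plate as a block, 665 and 11 where the markers were called in thinned cells, and 165 to 442 genes and 5 to 8 members with a plate left out (165 genes without VGAT E16 replicate 3 and 207 without replicate 4). For Otx2 cells, 576 genes and 9 members became 4 members with DESeq2, 929 and 15 without a filter, 247 and 3 with intronic counts, 355 genes in thinned cells, 145 and 2 without the plate as a block, and 373 to 633 genes and 4 to 11 members with a plate left out. The 4 members were counted without VGAT E16 replicate 3 and again without replicate 4, which also gave the 373 genes. The median share of cells with a member, over members on VGAT plates, was 31.8% at 4000 counts, 48.5% at 8000 and 63.8% without thinning. Named single members kept direction and side of the threshold in 559 settings and lost the call with the same direction in 117.

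Replicate numbers did not pair the plates: deviations of same-numbered VGAT plates from their group means had correlations of 0.033, 0.025 and 0.032. With the replicate number as a block, 202 genes and 1 member passed between stages. Depth limits C1ql2 and, on VGAT plates, C1ql3, which lie near 3 counts on several plates, and 79 cells fell below the thinning depth.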
